A study of Mus musculus with 48 samples.

Results

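The effect of a high-fat diet (HFD) on the liver transcriptome was compared between male and female C57BL/6J mice that received the vehicle. C57BL/6J is a common inbred laboratory strain. Liver poly(A) RNA was sequenced from 4 vehicle groups of 6 libraries each, HFD males, low-fat diet (LFD) males, HFD females and LFD females, sampled after 12 weeks. The same 4 groups, also of 6 libraries each, were given a weekly mixture of dioxin-like compounds. It held TCDD (10 ng/kg), PeCDF (80 ng/kg) and PCB126 (140 ng/kg). The libraries given the mixture are set beside the vehicle values. They also entered the shared fit, and so the spread behind each p and the choice of genes tested. No transgene or deletion is named for any group, and neither the age of the animals nor the composition of the diets was known here. The quantity described is a difference of differences in log2(TPM + 1): the diet effect in males, HFD minus LFD, minus the diet effect in females, HFD minus LFD. A positive value means that the diet effect was higher in males. It covers 14213 of the 49315 genes in the table, namely those on autosomes with at least 1 TPM in at least 6 of the 24 vehicle libraries, and 11871 of them are protein coding. Genes just inside that limit, the 275 with at least 1 TPM in exactly 6 libraries, had a median mean level of 0.742 TPM, and the 288 autosomal genes just outside it, with 5 such libraries, had 0.649 TPM.

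Mouse liver is one of the most sexually dimorphic tissues in gene expression. The pituitary releases growth hormone in pulses in males and more continuously in females, and the transcription factor STAT5, with factors downstream such as HNF6, CUX2 and BCL6, carries that difference to hepatocyte genes. Male-biased genes include the major urinary proteins (Mup), which carry pheromones into urine, and female-biased genes include many cytochrome P450 and sulfotransferase enzymes of steroid and drug metabolism. A high-fat diet loads hepatocytes with triglyceride, which is kept in lipid droplets and burned by fatty acid oxidation under the nuclear receptor PPARα.

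The library labels were checked before the comparison. Xist, the RNA of the inactive X chromosome, was at 52.3 to 88.6 TPM in the 12 vehicle females and at most 0.792 TPM in the 12 vehicle males. The 13 hepatocyte markers measured summed to between 86727 and 174478 TPM in every vehicle library. Skeletal muscle transcripts stood out in 3 vehicle libraries: the sum of 15 muscle genes was 9359 TPM in replicate 3 of the LFD females, 792 TPM in replicate 4 and 370 TPM in replicate 5 of the LFD males, and 9.71 to 146 TPM in the other 21. Replicate 1 of the HFD males stood nearest to the LFD males for many sex-biased genes. Results were recomputed without each of these libraries in turn. In these runs no called difference of a named gene changed its sign, and 3 to 6 of 205 named genes lost their call. The median difference of 12 muscle markers, of which 0 were called, was -0.52. It was 0.19 without replicate 4 and -0.03 without replicate 5 of the LFD males. Without replicate 3 of the LFD females it was -1.83, and without replicate 1 of the HFD males -0.45. The labels number 6 replicates in each group without saying that they were separate animals, so each p rests on library-to-library spread that may be technical. No batch is given, and if HFD and LFD mice formed different cohorts, that cannot be told apart from the diet within a sex.

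The diet changed the liver differently in the 2 sexes for 2779 of the 14213 genes (19.6%, limma adjusted p under 0.05), with the diet effect higher in males for 2252 (15.8%) and lower in males for 527 (3.71%). Across all 15820 genes tested in the series, 18.2% were called, 14.8% higher and 3.47% lower. This split depended on the scale. TPM are shares of a fixed total, and the median difference over the 14213 genes was 0.13 on the deposited scale. With a trimmed-mean scaling of the libraries, which moved that median by 0.13 to -0.003, 2020 genes were called (14.2%), 1025 higher (7.21%) and 995 lower (7.0%) in males. Over all genes tested the scaled shares were 13.3% called, 6.76% higher and 6.52% lower. Both scales called 1551 genes, all with the same sign, 1025 higher and 526 lower in males. Below, a gene's call held on both scales unless stated, and list medians are to be read against 0.13. List genes called higher or lower in males are so in this difference of diet effects, not in their level. Counts of list genes that rose or fell in a sex are on deposited TPM unless scaling is named. They are to be read against the shares of all genes in the next paragraph.

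Each sex on its own also responded. The diet effect passed in 4739 genes in males, 3869 higher and 870 lower on the HFD, and in 4218 genes in females, 2159 higher and 2059 lower. Those were 33.3% of the genes in males, 27.2% higher and 6.12% lower, and 29.7% in females, 15.2% higher and 14.5% lower. Over all genes tested, 31.4% were called in males (25.6% higher, 5.82% lower) and 28.0% in females (14.4% higher, 13.5% lower). With scaling 3704 genes passed in males (26.1%, 13.9% higher and 12.2% lower) and 4355 in females (30.6%, 15.8% higher and 14.8% lower), against 24.6% (13.1% and 11.5%) and 28.9% (15.0% and 13.9%) of all genes tested. Of the 2779 genes with a called difference, 1197 had a diet effect that passed in males only and 958 in females only. In 151 it passed in both sexes in the same direction with a different size, and in 188 it passed in neither. In 285 it passed in both sexes in opposite directions, 240 higher on the HFD in males and lower in females, and 45 the reverse. With scaling 187 genes were in that last class, 94 and 93 in those directions, and 133 were in it on both scales. Differences of at least 1 on the log2 scale were found for 440 of the called genes, 267 higher and 173 lower in males. The HFD and LFD libraries did not overlap in 2361 of the 14213 genes in males (16.6%) and in 1667 in females (11.7%). Statements below that groups did not overlap are to be read against these shares.

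**Figure D1:**
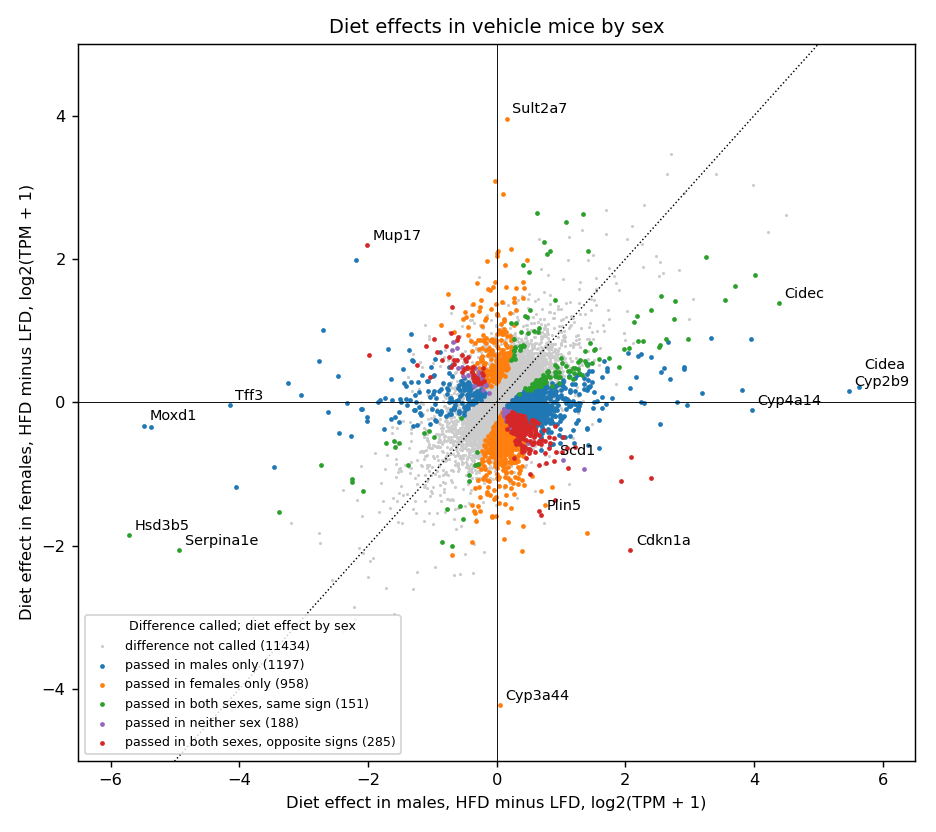
Diet effect (HFD minus LFD, log2(TPM + 1)) in vehicle males on the horizontal axis and in vehicle females on the vertical axis, one point per gene, 14213 genes; the dotted line marks equal effects. Colours mark the 2779 genes with a called difference by the sex in which the diet effect passed. Cyp2b9 and Cidea lie far right at a female effect near 0, Cyp3a44 and Sult2a7 lie far below and above 0 at a male effect near 0, and the 285 genes with opposite effects, such as Cdkn1a and Mup17, lie in the upper left and lower right quadrants.

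The promoters of 5 genes that lead the comparison are shown with letters of STAT5-type and HNF6-type motifs, since members of the sex-biased families moved together. They are 2 of the 3 genes with the most positive difference, the 2 with the most negative difference, and the gene with opposite effects whose weaker effect was largest. Sequences are from RefSeq on GRCm38.p6, 250 bases before to 50 bases after the start of the gene, 5′ to 3′ on the strand of the gene. Capitals mark TTCNNNGAA, which reads the same on both strands, and ATTGAT on either strand (ATCAAT when reversed); the 2 motifs may share letters at their ends and were counted separately. The lines below give Cyp2b9 (chr7:26173159-26173458, plus strand), Cyp3a44 (chr5:145805825-145806124, minus strand), Cdkn1a (chr17:29090729-29091028, plus strand), Moxd1 (chr10:24223267-24223566, plus strand) and Mup17 (chr4:61595783-61596082, minus strand).
Cyp2b9: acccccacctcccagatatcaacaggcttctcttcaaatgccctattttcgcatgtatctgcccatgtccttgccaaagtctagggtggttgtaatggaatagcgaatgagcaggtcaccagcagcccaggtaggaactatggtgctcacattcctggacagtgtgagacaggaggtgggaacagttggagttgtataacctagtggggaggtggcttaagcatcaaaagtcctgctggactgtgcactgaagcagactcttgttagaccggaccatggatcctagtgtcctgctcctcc
Cyp3a44: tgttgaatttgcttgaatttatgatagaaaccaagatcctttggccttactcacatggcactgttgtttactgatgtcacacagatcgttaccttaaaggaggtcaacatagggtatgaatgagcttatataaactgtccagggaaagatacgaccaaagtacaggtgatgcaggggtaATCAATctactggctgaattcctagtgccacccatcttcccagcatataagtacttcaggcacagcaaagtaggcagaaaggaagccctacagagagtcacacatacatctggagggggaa
Cdkn1a: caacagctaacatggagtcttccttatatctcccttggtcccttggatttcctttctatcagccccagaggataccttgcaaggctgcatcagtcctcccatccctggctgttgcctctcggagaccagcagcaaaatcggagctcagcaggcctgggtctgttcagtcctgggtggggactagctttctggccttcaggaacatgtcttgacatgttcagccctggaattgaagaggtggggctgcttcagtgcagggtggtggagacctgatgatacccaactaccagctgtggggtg
Moxd1: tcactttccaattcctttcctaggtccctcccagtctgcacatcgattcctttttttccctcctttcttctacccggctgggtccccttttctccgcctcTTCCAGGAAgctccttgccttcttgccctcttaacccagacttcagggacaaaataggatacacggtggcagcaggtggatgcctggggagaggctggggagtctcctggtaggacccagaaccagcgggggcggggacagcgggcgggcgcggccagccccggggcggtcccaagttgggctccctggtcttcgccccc
Mup17: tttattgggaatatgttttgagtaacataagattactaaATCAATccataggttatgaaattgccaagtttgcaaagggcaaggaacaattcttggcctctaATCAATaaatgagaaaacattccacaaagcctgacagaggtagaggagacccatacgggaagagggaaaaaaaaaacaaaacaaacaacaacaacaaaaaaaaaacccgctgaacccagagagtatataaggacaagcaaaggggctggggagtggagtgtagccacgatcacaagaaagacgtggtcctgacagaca
The Moxd1 window held 1 TTCNNNGAA, the Mup17 window 2 ATTGAT and the Cyp3a44 window 1, and no letters of either motif as written stood in the Cyp2b9 and Cdkn1a windows. A RefSeq promoter was matched by symbol for 9758 of the 14213 genes, of which 7.13% held TTCNNNGAA and 4.47% held ATTGAT, against 8.54% and 7.69% of all 25748 autosomal promoters in the table. Of the genes called on both scales, ATTGAT stood in 16 of the 93 matched windows of genes lower in males by at least 1 (17.2%) and in 9 of the 153 of genes higher in males by at least 1 (5.88%). The Mup genes, whose promoters resemble each other, made up 10 of those 16. TTCNNNGAA stood in 7.53% and 3.27% of the same windows. A match is a description of letters in a window and was not tested as a binding site.

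Male-biased liver genes had lower diet effects in males. Of 38 measured genes of a list of male-biased liver genes, 28 were called lower and 0 higher, with a median difference of -1.38; with scaling 30 were lower and 0 higher. In males 28 fell on the HFD and 1 rose, and in females 7 fell and 8 rose. The median gap between the sexes, male minus female, was 1.79 on the HFD and 3.31 on the LFD. Across the alternatives 25 to 30 genes of the list were called lower. Replicate 1 of the HFD males was the one nearest to the LFD males for 25 of the 28, and without it 30 were called lower.

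The levels show how far single genes moved. Moxd1, which encodes a dopamine beta-hydroxylase-like monooxygenase, was at 0.0955, 0.166 and 0.649 TPM in HFD males, against 6.79, 54.7 and 201 TPM in LFD males (each triplet of levels is the lowest, the median and the highest of the 6 libraries of a group). In females it was at 0, 0.0755 and 0.288 TPM in HFD females, against 0, 0.414 and 0.783 TPM in LFD females, all under 1 TPM. Every HFD male lay below every LFD male, and the 2 female groups overlapped. The difference was -5.15 on the log2 scale (SE 0.79, limma adjusted p = 1.03e-05). Hsd3b5, a ketosteroid reductase of male mouse liver, was at 1.14, 4.26 and 115 TPM in HFD males, against 292, 396 and 458 TPM in LFD males. In females it was at 0.391, 0.7397 and 2.497 TPM in HFD females, against 2.704, 3.92 and 17.4 TPM in LFD females. Hsd3b5 fell in both sexes, by 5.71 in males and by 1.85 in females, so that its difference was -3.85 on the log2 scale (SE 0.78, limma adjusted p = 0.000507). Its highest HFD male, at 115 TPM, was replicate 1.

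Cyp7b1, the oxysterol 7α-hydroxylase of the alternative bile acid pathway, moved in opposite directions. It was at 33.4, 47.3 and 94.1 TPM in HFD males, against 142, 186 and 317 TPM in LFD males, and at 20.8, 23.03 and 25.9 TPM in HFD females, against 12.1, 13.5 and 19.96 TPM in LFD females. The HFD groups lay entirely below the LFD group in males and entirely above it in females, with a difference of -2.64 on the log2 scale (SE 0.33, limma adjusted p = 3.83e-07). Susd4, a regulator of complement, had 2.54, 5.28 and 10.4 TPM in HFD males, against 23.4, 26.5 and 42.2 TPM in LFD males. Its female levels, 0.810, 1.31 and 1.88 TPM in HFD females, against 0.721, 1.43 and 2.26 TPM in LFD females, overlapped, and the difference was -2.32 on the log2 scale (SE 0.27, limma adjusted p = 1.44e-07). Nudt7, a peroxisomal coenzyme A diphosphatase, had a difference of -1.77 (SE 0.26, adjusted p = 6.59e-06). Tff3, a secreted trefoil peptide that is not in the list, was at 4.19, 5.97 and 11.6 TPM in HFD males, against 65.4, 95.97 and 402 TPM in LFD males, and at 3.06, 9.75 and 14.1 TPM in HFD females, against 4.48, 8.26 and 16.5 TPM in LFD females. Every HFD male lay below every LFD male, at the level of the females, and the difference was -4.10 (SE 0.57, adjusted p = 2.33e-06).

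The major urinary proteins had lower diet effects in males. Of 19 measured, 17 were called lower in males and 0 higher, also with scaling, with a median of -1.97. In males 16 fell on the HFD and in females 0 fell and 4 rose. The summed level of the 21 genes listed was 7319, 13583 and 27610 TPM in HFD males, against 27668, 38412 and 46591 TPM in LFD males. In females the sum was 3634, 4198 and 4430 TPM on the HFD and 2352, 3185 and 4704 TPM on the LFD. The male diet groups of this sum touched without overlapping and the female groups overlapped. Mup genes are near-identical copies clustered on chromosome 4, so that the division of reads among them rests on how the authors' counting assigned shared reads.

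Single Mup genes differed in where the change lay. Mup17 was at 48.05, 122 and 586 TPM in HFD males, against 312, 534 and 996 TPM in LFD males, and at 90.3, 162 and 206 TPM in HFD females, against 11.4, 27.9 and 119 TPM in LFD females. Its male effect of -2.01 and its female effect of 2.19 both passed in opposite directions, and the difference was -4.21 on the log2 scale (SE 0.73, limma adjusted p = 7.30e-05). Mup21, a more divergent member, was at 71.02, 169 and 536 TPM in HFD males, against 669, 1270 and 1661 TPM in LFD males, and at 23.7, 26.5 and 34.3 TPM in HFD females, against 16.5, 31.8 and 56.9 TPM in LFD females. Mup21 fell in males with no overlap and had a female effect of -0.14 that did not pass, with a difference of -2.49 (SE 0.44, adjusted p = 9.03e-05). Mup11, Mup14, Mup15 and Mup16 had differences of -3.51, -3.13, -3.34 and -3.72. Mup7 had the highest level of those named, 51.7, 289 and 2310 TPM in HFD males, against 2102, 4698 and 8006 TPM in LFD males, and a difference of -2.87 (SE 0.98, adjusted p = 0.0345), and it was no longer called when low genes were kept in the test (adjusted p = 0.0788).

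Other male-biased enzymes and secreted proteins followed. Serpina1e, 1 of several near-identical copies of the α1-antitrypsin gene, was at 44.3, 196 and 1287 TPM in HFD males, against 3982, 6413 and 10339 TPM in LFD males, and at 17.3, 18.8 and 32.7 TPM in HFD females, against 43.8, 86.2 and 199 TPM in LFD females. It fell in both sexes without overlap, further in males, with a difference of -2.87 (SE 0.78, adjusted p = 0.00752). Its paralogue Serpina1a was at 963, 1111 and 1344 TPM in HFD males, against 1804, 1938 and 2189 TPM in LFD males, with a female effect of 0.12 that did not pass and a difference of -0.89 (SE 0.12, adjusted p = 2.03e-06). Cyp2d9, a testosterone 16α-hydroxylase, fell in males by 0.79 and rose in females by 0.78, with a difference of -1.57 (SE 0.28, adjusted p = 8.48e-05). Its HFD males overlapped the LFD males through 1 library at 2394 TPM. Elovl3, an elongase of very long chain fatty acids, was at 53.6, 110 and 223 TPM in HFD males, against 171, 194 and 230 TPM in LFD males, and at 13.3, 20.3 and 33.3 TPM in HFD females, against 4.93, 6.83 and 10.1 TPM in LFD females. It rose in females without overlap, and its male effect of -0.75 did not pass on the deposited scale (adjusted p = 0.0594) and passed with scaling (adjusted p = 0.0273); the difference was -2.27 (SE 0.44, adjusted p = 0.000274).

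Female-biased liver genes mostly had higher diet effects in males where the difference was called. Of 48 measured genes of a list of female-biased liver genes, 21 were called higher in males and 6 lower, with a median of 0.82; with scaling 18 were higher and 6 lower. In males 27 rose and 2 fell on the HFD, and in females 14 rose and 6 fell. The median gap, male minus female, was -2.25 on the HFD and -3.69 on the LFD. Without replicate 1 of the HFD males 22 were called higher and 6 lower. For 13 of the 21 that replicate was the HFD male library nearest to the LFD males.

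Cyp2b9, a female-predominant P450, was at 12.5, 146 and 387 TPM in HFD males, against 0.922, 1.42 and 1.95 TPM in LFD males. In females it was at 552, 632 and 774 TPM in HFD females, against 499, 579 and 664 TPM in LFD females. All HFD males lay above all LFD males and below all females, whose diet groups overlapped. The difference was 5.32 on the log2 scale (SE 0.54, limma adjusted p = 7.07e-09), from a male effect of 5.47 and a female effect of 0.16. Slc22a27, an organic anion transporter of the solute carrier family, had the same form, at 2.57, 12.9 and 25.4 TPM in HFD males, against 0.0679, 0.473 and 0.817 TPM in LFD males, and at 42.7, 49.8 and 74.1 TPM in HFD females, against 38.7, 46.8 and 57.4 TPM in LFD females. Its difference was 3.06 (SE 0.42, adjusted p = 2.13e-06). Cyp2c39, a P450 that can oxidise retinoic acid, had a difference of 2.24 (SE 0.26, adjusted p = 1.44e-07), and Cyp2b10, the classical target of the xenobiotic receptor CAR, had 3.00 (SE 0.58, adjusted p = 0.000256).

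A second form was a fall in females. Cyp3a44, a P450 almost restricted to females, was at 0.233, 0.356 and 0.884 TPM in HFD males, against 0.149, 0.353 and 0.719 TPM in LFD males, all under 1 TPM. In females it was at 5.82, 8.56 and 14.99 TPM in HFD females, against 84.6, 186 and 552 TPM in LFD females. The HFD females lay entirely below the LFD females and the males overlapped, so the difference of 4.27 (SE 0.59, adjusted p = 2.13e-06) came from the female effect of -4.23. Cyp2a4, a steroid 15α-hydroxylase, moved in both sexes toward each other. It was at 7.26, 31.1 and 73.2 TPM in HFD males, against 3.62, 4.38 and 6.97 TPM in LFD males, and at 496, 899 and 976 TPM in HFD females, against 763, 1786 and 2310 TPM in LFD females, with a difference of 3.46 (SE 0.48, adjusted p = 2.40e-06). Cyp genes of these subfamilies and the Sult2a genes have close paralogues, so their single values are uncertain in the same way as those of the Mup genes.

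The sulfotransferases of the Sult2a family, which conjugate steroids and bile acids, went the other way. They rose in HFD females, and the male effect did not pass in 3 of the 4 named. Sult2a7 was at 1.76, 3.65 and 5.54 TPM in HFD males, against 1.83, 3.14 and 3.88 TPM in LFD males, with overlap. In females it was at 63.4, 93.7 and 130 TPM in HFD females, against 2.502, 3.804 and 14.7 TPM in LFD females, without overlap. Its difference was -3.80 on the log2 scale (SE 0.40, limma adjusted p = 1.22e-08). Sult2a5 was at most 0.165 TPM in males on either diet and at 40.6, 57.6 and 91.05 TPM in HFD females, against 3.44, 6.39 and 10.9 TPM in LFD females, with a difference of -3.12 (SE 0.35, adjusted p = 6.08e-08). Sult2a3 was at most 0.554 TPM in males on either diet and at 206, 245 and 320 TPM in HFD females, against 15.3, 30.2 and 84.7 TPM in LFD females, and its difference was -2.80 (SE 0.43, adjusted p = 1.20e-05). Sult2a8, the member that is abundant in males, was at 151, 253 and 364 TPM in HFD males, against 326, 389 and 436 TPM in LFD males, and at 188, 208 and 326 TPM in HFD females, against 55.8, 95.2 and 135 TPM in LFD females. Sult2a8 fell in males by 0.69 and rose in females by 1.33, with a difference of -2.02 (SE 0.33, adjusted p = 2.51e-05). Of 18 sulfotransferases measured, 7 were lower and 2 higher in males on both scales.

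**Figure D2:**
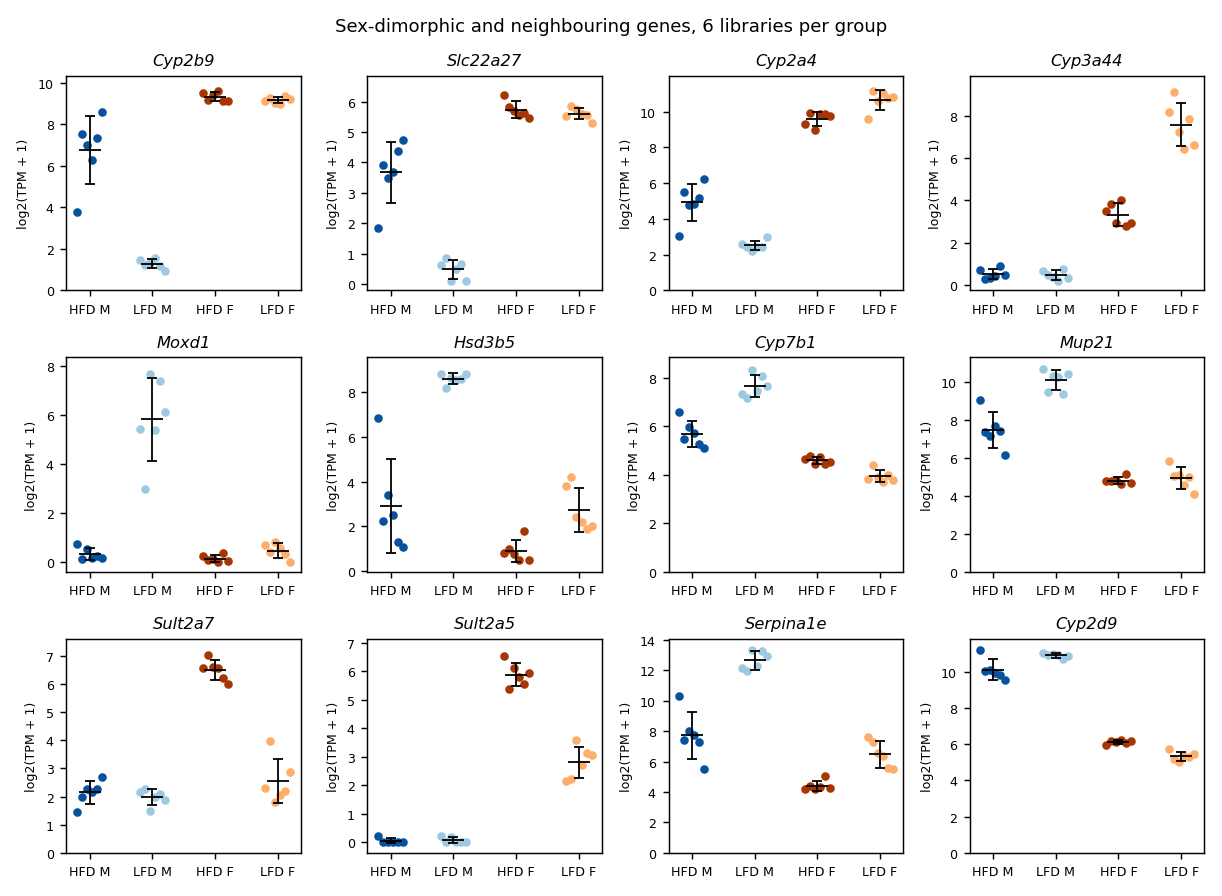
Level of 12 sex-dimorphic genes and neighbours in log2(TPM + 1), 1 dot per library, in HFD males, LFD males, HFD females and LFD females; bars are the mean ± SD of 6 libraries. Cyp2b9, Slc22a27 and Cyp2a4 are higher in HFD males than in LFD males, Moxd1, Hsd3b5 and Serpina1e are lower, and Sult2a7 and Sult2a5 are higher in HFD females than in LFD females.

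Counted over all 14213 genes, large gaps between the sexes were fewer on the HFD. Genes higher in males by at least 1 on the log2 scale numbered 140 on the HFD, against 249 on the LFD. Those higher in females by at least 1 numbered 128 on the HFD, against 263 on the LFD. With scaling the counts were 131 on the HFD and 293 on the LFD for males, and 135 and 226 for females. These counts have no test of their own.

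The growth hormone axis had calls in both directions. Of 25 measured genes of growth hormone, STAT5 and insulin-like growth factor signalling, 7 were higher and 3 lower in males, with a median of 0.13, and 3 higher and 3 lower with scaling, where the median was -0.03. Stat5a, which encodes 1 of the 2 STAT5 proteins, was at 7.01, 7.26 and 9.14 TPM in HFD males, against 3.46, 3.89 and 4.63 TPM in LFD males, and at 6.198, 7.15 and 9.55 TPM in HFD females, against 5.59, 6.23 and 9.07 TPM in LFD females. It rose in males without overlap, and the difference was 0.73 (SE 0.16, adjusted p = 0.00132). Ghr, the growth hormone receptor, rose in females by 0.40 and had a male effect of -0.05 that did not pass, with a difference of -0.44 (SE 0.11, adjusted p = 0.0038). Lepr, the leptin receptor, fell in both sexes, to 2.59, 4.61 and 5.16 TPM in HFD females, against 14.99, 19.2 and 25.9 TPM in LFD females, with a difference of 1.31 (SE 0.32, adjusted p = 0.00286).

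Lipid droplet genes had higher diet effects in males where the difference was called. Of 24 measured genes of lipid droplets, 11 were called higher and 0 lower in males, with a median of 0.43, and 8 higher and 0 lower with scaling. In males 17 rose on the HFD (14 with scaling) and in females 5 rose and 2 fell. Cidea, which promotes fusion of lipid droplets and is scarce in lean liver, had the most positive difference of the named genes. It was at 84.2, 103 and 145 TPM in HFD males, against 0.126, 0.903 and 4.12 TPM in LFD males, and at 0.406, 0.686 and 1.41 TPM in HFD females, against 0, 0.573 and 0.956 TPM in LFD females. Each HFD male lay above the highest of the other 18 vehicle libraries, and the difference was 5.41 on the log2 scale (SE 0.76, limma adjusted p = 2.57e-06). Cidec, a relative with the same function, was at 108, 162 and 242 TPM in HFD males, against 2.703, 7.65 and 13.1 TPM in LFD males, and at 15.01, 25.7 and 34.4 TPM in HFD females, against 5.75, 9.09 and 13.8 TPM in LFD females. Cidec rose in both sexes without overlap, further in males, with a difference of 3.00 (SE 0.54, adjusted p = 0.00011). Cidea and Cidec also mark adipocytes. Adipoq, the defining adipocyte gene, was at most 0.287 TPM in HFD males and Lep was at 0 in all 6, while Adipoq reached 9.48 TPM and Lep 1.24 TPM in the highest HFD female library. The sum of the 12 adipocyte markers, which include Cidea and Cidec, was 311, 444 and 695 TPM in HFD males, against 68.5, 92.3 and 139 TPM in LFD males, and 97.4, 122 and 143 TPM in HFD females, against 63.1, 128 and 151 TPM in LFD females.

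Plin5, which coats droplets in oxidative tissues, had a different form. It was at 46.9, 62.4 and 76.4 TPM in HFD males, against 27.4, 34.7 and 67.4 TPM in LFD males, and at 40.2, 53.4 and 65.6 TPM in HFD females, against 116, 159 and 213 TPM in LFD females. The HFD females lay entirely below the LFD females, and the difference was 2.26 (SE 0.29, adjusted p = 5.09e-07). Its rise in males of 0.69 did not pass with scaling (adjusted p = 0.0602). Fitm2, needed for droplet budding, was at 52.8, 60.1 and 76.3 TPM in HFD males, against 22.7, 29.6 and 35.99 TPM in LFD males, with a female effect of -0.01 and a difference of 1.09 (SE 0.17, adjusted p = 1.11e-05). Ly6d, a GPI-anchored surface protein that is in no lipid list, was at 38.8, 55.97 and 97.8 TPM in HFD males, against 0.429, 2.98 and 14.2 TPM in LFD males, and at 11.2, 34.6 and 50.7 TPM in HFD females, against 2.15, 20.7 and 30.6 TPM in LFD females. It rose in males without overlap, and its difference was 3.07 (SE 0.80, adjusted p = 0.00528).

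Genes of fatty acid oxidation formed the list with the most higher calls by number, though not by share. In either direction 62.2% of this list was called, beside 19.6% of all 14213 genes. The shares were 85.0% for the endothelial markers and 76.9% for the stellate cell genes described further on. Of 45 measured PPARα targets, fatty acid oxidation and ketogenesis genes, 27 were higher and 1 lower in males, with a median of 0.58, and 20 higher and 1 lower with scaling. In males 38 rose on the HFD and 0 fell (32 and 0 with scaling), and in females 16 rose and 4 fell. The median gap between the sexes of the list was -0.06 on the HFD and -0.57 on the LFD. Across the alternatives 20 to 30 were called higher. Cyp4a14, a microsomal fatty acid ω-hydroxylase, was at 68.8, 250 and 439 TPM in HFD males, against 5.31, 8.501 and 84.7 TPM in LFD males, and at 973, 1251 and 1281 TPM in HFD females, against 700, 1306 and 2042 TPM in LFD females. The male groups overlapped only in that the highest LFD male, at 84.7 TPM, exceeded the lowest HFD male, at 68.8 TPM, and the difference was 4.08 (SE 0.64, adjusted p = 1.70e-05). Acot2, a mitochondrial acyl-CoA thioesterase, was at 12.3, 21.4 and 45.3 TPM in HFD males, against 1.198, 2.94 and 4.66 TPM in LFD males, and at 19.8, 26.9 and 54.3 TPM in HFD females, against 12.5, 23.1 and 27.5 TPM in LFD females. The LFD males lay below all other groups, and the difference was 2.12 (SE 0.37, adjusted p = 8.12e-05). Crat, carnitine acetyltransferase, had a difference of 1.77 (SE 0.27, adjusted p = 8.20e-06), with a female effect of -0.36 that did not pass. Cyp4a31, another ω-hydroxylase, rose in males by 0.66 and fell in females by 1.51, with a difference of 2.18 (SE 0.35, adjusted p = 2.03e-05), though its male effect did not pass with scaling (adjusted p = 0.1).

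Fatty acid uptake and triglyceride synthesis had single members with large differences. Cd36, the fatty acid translocase, was at 130, 179 and 216 TPM in HFD males, against 13.7, 22.02 and 30.8 TPM in LFD males, and at 161, 179 and 274 TPM in HFD females, against 50.7, 114 and 148 TPM in LFD females. Cd36 rose in both sexes without overlap and more in males, with a difference of 2.08 (SE 0.32, adjusted p = 1.40e-05). Gpat3, a glycerol-3-phosphate acyltransferase, was at 8.35, 14.6 and 19.5 TPM in HFD males, against 0.709, 1.27 and 2.51 TPM in LFD males, and at 14.9, 23.6 and 30.03 TPM in HFD females, against 6.398, 12.6 and 15.7 TPM in LFD females. The difference was 1.74 (SE 0.29, adjusted p = 3.04e-05). Agpat3, the next enzyme type of that pathway, rose in males by 0.47 and fell in females by 0.31, without overlap in either sex, with a difference of 0.78 (SE 0.11, adjusted p = 2.15e-06). Mttp, which loads triglyceride onto lipoproteins, fell in females by 0.65 and had a male effect of 0.13 that did not pass, with a difference of 0.78 (SE 0.15, adjusted p = 0.000377). Of the 19 triglyceride synthesis genes 6 were higher and 0 lower, and 3 higher with scaling.

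De novo lipogenesis was mixed. Of 27 measured genes, 6 were higher and 3 lower in males on the deposited scale, and 1 higher and 3 lower with scaling. In males 3 rose and 8 fell on the HFD (1 and 13 with scaling), and in females 3 rose and 17 fell. Scd1, the stearoyl-CoA desaturase and among the most abundant liver transcripts, was at 16471, 24119 and 32438 TPM in HFD males, against 6104, 14160 and 23392 TPM in LFD males, and at 5249, 10044 and 16715 TPM in HFD females, against 14115, 18785 and 22527 TPM in LFD females. It rose in males and fell in females, both groups overlapping, with a difference of 1.71 (SE 0.38, adjusted p = 0.00113). Srebf1, the transcription factor that drives lipogenic genes, was at 268, 292 and 406 TPM in HFD males, against 178, 243 and 347 TPM in LFD males, and at 217, 306 and 397 TPM in HFD females, against 91.4, 110 and 162 TPM in LFD females. Srebf1 rose in females without overlap, while the male effect of 0.41 did not pass, and the difference was -1.04 (SE 0.24, adjusted p = 0.0019). Mlxipl, which encodes the carbohydrate-responsive factor ChREBP, had a difference of -0.55 (SE 0.17, adjusted p = 0.0179). Cholesterol synthesis genes fell in both sexes: in that list 19 of 24 fell in males and 18 of 24 in females on the HFD, the median diet effects being -1.23 and -1.21.

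**Figure D3:**
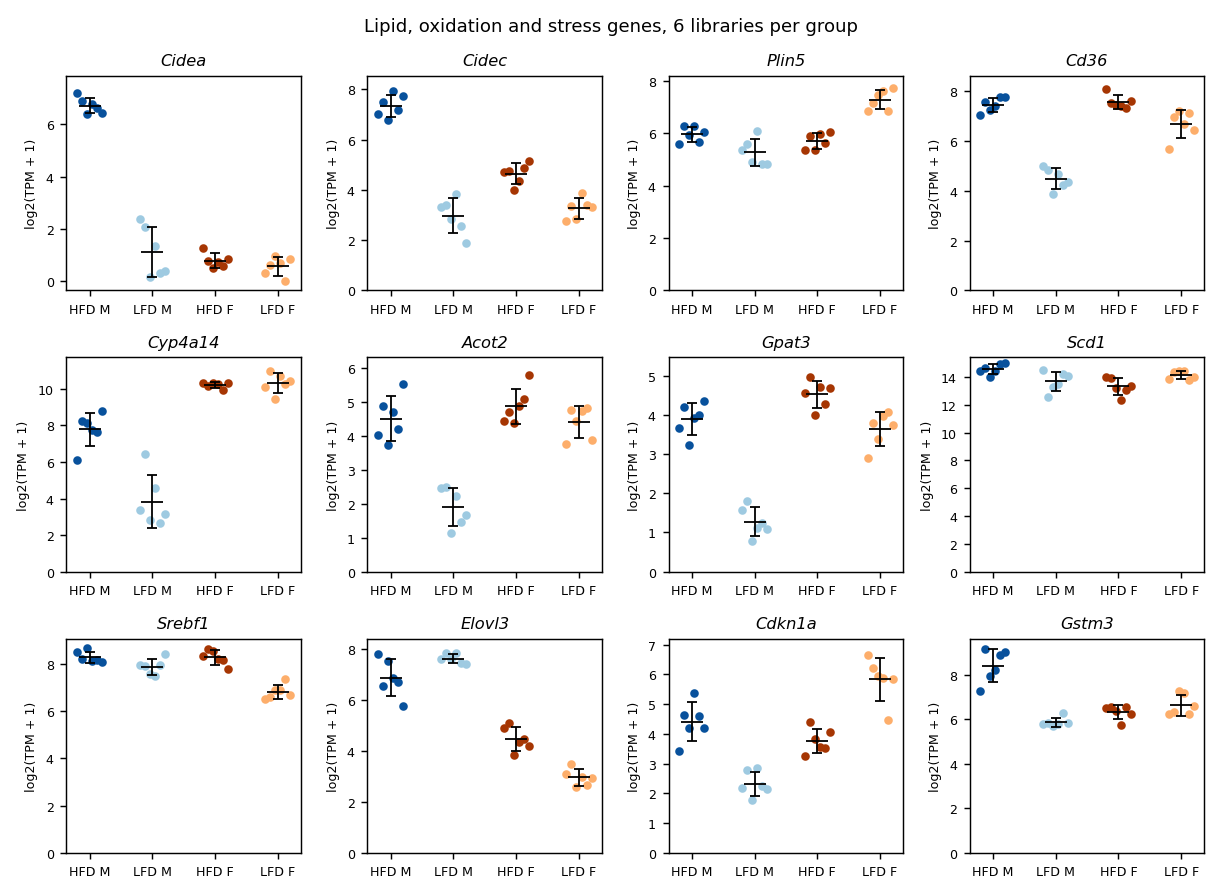
Level of 12 lipid, oxidation and stress genes in log2(TPM + 1), 1 dot per library, in HFD males, LFD males, HFD females and LFD females; bars are the mean ± SD of 6 libraries. Cidea is high in the HFD males, Acot2, Gpat3 and Cd36 are low in the LFD males, and Cdkn1a and Scd1 are higher on the HFD in males and lower on it in females.

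Genes that moved in opposite directions were led by Cdkn1a, which encodes the cell cycle inhibitor p21. It was at 9.64, 20.3 and 40.7 TPM in HFD males, against 2.43, 3.62 and 6.19 TPM in LFD males, and at 8.63, 11.97 and 19.9 TPM in HFD females, against 21.4, 59.0 and 100 TPM in LFD females. The diet groups did not overlap in either sex and were ordered oppositely, so that the male effect was 2.08, the female effect -2.06 and the difference 4.14 (SE 0.46, adjusted p = 3.33e-08). Nt5e, the ectonucleotidase CD73, was at 2.31, 3.45 and 5.01 TPM in HFD males, against 0.425, 1.104 and 1.58 TPM in LFD males, and at 9.03, 10.7 and 17.6 TPM in HFD females, against 18.5, 21.02 and 35.8 TPM in LFD females. It too changed without overlap in both sexes, with a difference of 2.04 (SE 0.25, adjusted p = 3.72e-07). Acnat2, which conjugates fatty acids with amino acids in peroxisomes, was at 48.9, 89.1 and 124 TPM in HFD males, against 11.2, 20.4 and 25.6 TPM in LFD males, and at 105, 122 and 152 TPM in HFD females, against 161, 194 and 336 TPM in LFD females, with a difference of 2.84 (SE 0.27, adjusted p = 2.62e-09). Thbd, the endothelial anticoagulant receptor thrombomodulin, rose in males by 0.76 and fell in females by 0.85, with a difference of 1.61 (SE 0.32, adjusted p = 0.000442). In the other direction stood Mup17 and Cyp2d9 above, Mup18 (-1.86 (SE 0.48, adjusted p = 0.00555)) and Dclk3, a doublecortin-like kinase, which fell in males by 1.09 and rose in females by 0.78 (-1.87 (SE 0.26, adjusted p = 2.40e-06)). All 10 genes that the naming rule picked from this class, Cyp2a4 and Scd1 included, were in it on both scales.

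Some stress and growth genes had a higher diet effect in males. Of 28 measured heat shock and endoplasmic reticulum chaperones, 12 were higher and 0 lower, with a median of 0.59, and 8 higher and 0 lower with scaling. In males 12 rose and 1 fell (10 and 1 with scaling), and in females 3 rose and 6 fell. Hspb1, a small heat shock protein, was at 56.6, 68.8 and 98.4 TPM in HFD males, against 14.3, 18.8 and 21.5 TPM in LFD males, and at 20.4, 30.7 and 41.98 TPM in HFD females, against 15.8, 19.5 and 32.8 TPM in LFD females, with a difference of 1.40 (SE 0.26, adjusted p = 0.000156). Hsph1, a co-chaperone of Hsp70, had 1.61 (SE 0.32, adjusted p = 0.000391). Of 26 cell cycle and replication genes 11 were higher and 1 lower, and 6 higher and 1 lower with scaling. Ccnd1, the G1 cyclin D1, fell in females by 1.03, to 29.7, 33.5 and 37.97 TPM in HFD females, against 42.9, 72.005 and 102 TPM in LFD females, and had a male effect of 0.54 (adjusted p = 0.0735) and a difference of 1.57 (SE 0.33, adjusted p = 0.000764). Mcm4, a subunit of the replicative helicase, rose in males by 0.98 and had a difference of 0.73 (SE 0.18, adjusted p = 0.00325), and Rrm2, a subunit of ribonucleotide reductase, fell in females by 1.28 and had 1.14 (SE 0.25, adjusted p = 0.00137). Fgf21, a fasting hormone of the liver, had a difference of 2.05 (SE 0.59, adjusted p = 0.0123), with overlap of the diet groups in both sexes. Asns, asparagine synthetase, fell in males by 1.35 and had -1.37 (SE 0.38, adjusted p = 0.00861).

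Most glutathione S-transferases and Nrf2 targets rose in males. Of 32 measured genes of the glutathione S-transferase families and Nrf2 targets, 12 were higher and 2 lower in males, and 9 higher and 4 lower with scaling. In males 24 rose and 2 fell (18 and 3 with scaling) and in females 14 rose and 2 fell. Gstm3 was at 153, 381 and 560 TPM in HFD males, against 51.3, 55.1 and 76.3 TPM in LFD males, and at 52.9, 86.4 and 92.5 TPM in HFD females, against 74.2, 86.8 and 152 TPM in LFD females. It rose in males without overlap, and the difference was 2.84 (SE 0.42, adjusted p = 5.15e-06). Its neighbours Gstm1 and Gstm2, close in sequence, had 1.34 (SE 0.25, adjusted p = 0.000193) and 1.53 (SE 0.28, adjusted p = 0.000138). Nqo1, a quinone reductase, rose in both sexes without overlap and further in males, with 1.13 (SE 0.20, adjusted p = 0.000105).

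Cyp1a2, a P450 of pericentral hepatocytes and a target of the aryl hydrocarbon receptor, was at 230, 336 and 422 TPM in HFD males, against 549, 657 and 774 TPM in LFD males, and at 363, 404 and 480 TPM in HFD females, against 262, 308 and 415 TPM in LFD females. Cyp1a2 fell in males without overlap and rose in females with overlap, with a difference of -1.40 on the log2 scale (SE 0.18, limma adjusted p = 7.28e-07). Slc46a3, a lysosomal transporter, rose in females by 0.82 and had a male effect of -0.34 that did not pass on the deposited scale and passed with scaling (adjusted p = 0.0252), with a difference of -1.16 (SE 0.22, adjusted p = 0.000179). Aldh1a1, a retinal dehydrogenase, rose in both sexes and further in females, with -0.69 (SE 0.18, adjusted p = 0.00539), as did the P450 gene Cyp2c50, with -1.29 (SE 0.27, adjusted p = 0.000841). Cytochrome P450 genes of families 2 to 4 as a whole were split, with 13 of 55 higher and 12 lower in males, and 11 and 15 with scaling.

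Markers of sinusoidal endothelial cells, the fenestrated lining of liver capillaries, differed in most members. Of 20 measured, 17 were called higher and 0 lower, with a median of 0.70, and 13 higher and 0 lower with scaling. In females 18 fell on the HFD and 0 rose, and in males 6 rose and 0 fell (4 and 1 with scaling). Their sum was 322, 352 and 426 TPM in HFD males, against 270, 318 and 342 TPM in LFD males. In females it was 281, 311 and 331 TPM on the HFD, against 369, 460 and 586 TPM on the LFD, with no overlap. In bulk tissue, fewer cells of a type and less RNA per cell cannot be told apart. Stab1, a scavenger receptor, was at 13.7, 15.8 and 18.6 TPM in HFD females, against 20.2, 30.3 and 38.8 TPM in LFD females, with a male effect of 0.14 that did not pass and a difference of 0.98 (SE 0.18, adjusted p = 0.000188). Eng, a co-receptor of TGF-β, was at 36.6, 40.7 and 46.4 TPM in HFD females, against 51.7, 64.5 and 71.8 TPM in LFD females, with a difference of 0.69 (SE 0.12, adjusted p = 5.93e-05). Ptprb, an endothelial tyrosine phosphatase, had 0.78 (SE 0.15, adjusted p = 0.000218), and Pecam1, an adhesion molecule, rose in males by 0.53 and fell in females by 0.43, with 0.96 (SE 0.18, adjusted p = 0.000222). The sum of hepatocyte markers moved beside it, with medians of 91207 TPM in HFD males, against 134495 TPM in LFD males, and 105074 TPM in HFD females, against 157611 TPM in LFD females, and its part in these results, and in those of the stellate and macrophage lists that follow, was not tested.

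Most stellate cell and fibrosis genes rose in males. Of 26 measured, 20 were higher and 0 lower, with a median of 0.73, and 12 higher and 0 lower with scaling. In males 19 rose on the HFD and 0 fell (15 and 0 with scaling), and in females 0 rose and 5 fell. Their sum was 615, 662 and 700 TPM in HFD males, against 395, 426 and 459 TPM in LFD males, with no overlap, and 541, 578 and 631 TPM in HFD females, against 538, 642 and 845 TPM in LFD females, with overlap. Col4a1, a basement membrane collagen, was at 19.8, 24.2 and 29.5 TPM in HFD males, against 9.23, 10.995 and 17.7 TPM in LFD males, and at 10.6, 13.3 and 16.7 TPM in HFD females, against 14.7, 19.2 and 24.8 TPM in LFD females, with a difference of 1.51 (SE 0.24, adjusted p = 1.68e-05). Dcn, the proteoglycan decorin of stellate cells and fibroblasts, was at 157, 182 and 213 TPM in HFD males, against 104, 113 and 131 TPM in LFD males, with a female effect of -0.05 and a difference of 0.73 (SE 0.15, adjusted p = 0.000558). Hgf, the hepatocyte growth factor that stellate cells secrete, rose in males by 0.40 and fell in females by 0.62, with 1.02 (SE 0.21, adjusted p = 0.000627), and its male effect did not pass with scaling (adjusted p = 0.121). Reln, the matrix protein reelin, fell in females by 0.62, with 0.94 (SE 0.19, adjusted p = 0.000442).

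Macrophage and monocyte markers had a few calls. Of 12 Kupffer cell markers 4 were higher and 0 lower, and 1 with scaling, and of 14 lipid-associated macrophage and monocyte markers 4 were higher and 0 lower on both scales. In males 11 of those 14 rose on the HFD (9 with scaling), and in females 4 rose and 3 fell. Cd163, a haemoglobin scavenger receptor of resident macrophages, was at 6.98, 9.79 and 12.2 TPM in HFD females, against 20.4, 39.5 and 39.6 TPM in LFD females, without overlap, and had a difference of 1.34 (SE 0.33, adjusted p = 0.00344). Ccl2, the chemokine that draws monocytes, was at 4.02, 8.17 and 12.2 TPM in HFD males, against 0.129, 0.894 and 1.404 TPM in LFD males, and at 0.884, 2.701 and 3.81 TPM in HFD females, against 0.493, 0.876 and 2.45 TPM in LFD females, with a difference of 1.56 (SE 0.37, adjusted p = 0.00252). Lgals3, a galectin of activated macrophages, rose in males without overlap and had 1.17 (SE 0.33, adjusted p = 0.0106). Cd9, a tetraspanin, fell in females by 1.45 and had 1.16 (SE 0.27, adjusted p = 0.0018). Adgre1, the macrophage marker F4/80, had a difference of 1.26 (SE 0.42, adjusted p = 0.033), a call lost with scaling (adjusted p = 0.0734) and when low genes were kept in the test (adjusted p = 0.0748).

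Coagulation, bile acid and clock genes were called in both directions on deposited TPM. Of 38 complement and coagulation genes 11 were lower and 1 higher in males, and 19 lower and 0 higher with scaling. F7, coagulation factor VII, was at 95.2, 111 and 120 TPM in HFD males, against 163, 173 and 185 TPM in LFD males, with a female effect of -0.08 and a difference of -0.58 (SE 0.12, adjusted p = 0.000529). Klkb1, plasma prekallikrein, fell in males by 0.38 and rose in females by 0.48, with -0.86 (SE 0.16, adjusted p = 0.000136). Abcb4, the phospholipid exporter of bile, was at 101, 111 and 117 TPM in HFD males, against 45.5, 60.6 and 65.8 TPM in LFD males, and fell in females by 0.32, with a difference of 1.23 (SE 0.16, adjusted p = 6.83e-07). Of 32 bile acid genes 6 were higher and 5 lower, and 5 higher and 8 lower with scaling. Serpina6, the corticosteroid-binding globulin of plasma, was at 758, 891 and 1271 TPM in HFD females, against 243, 305 and 512 TPM in LFD females, without overlap, with a male effect of 0.27 that did not pass and a difference of -1.19 (SE 0.23, adjusted p = 0.000342). Of 23 ceramide and sphingomyelin enzymes 9 were higher and 0 lower, and 6 higher and 1 lower with scaling, among them Sgms1, a sphingomyelin synthase (0.97 (SE 0.13, adjusted p = 1.21e-06)), and the ceramide synthase Cers6 (1.24 (SE 0.20, adjusted p = 2.98e-05)). Of 21 circadian clock genes 2 were higher and 5 lower, and 2 and 6 with scaling, with the activator Arntl at 1.55 (SE 0.38, adjusted p = 0.00301) and the repressor Bhlhe41 at -1.37 (SE 0.30, adjusted p = 0.00123). Arntl was at 11.7 TPM in replicate 1 of the LFD females, against 1.73 to 3.78 TPM in the other 5. No run left that library out. It also stood far from the other 5 for Aldh1a1, Cers6, Cyp2a4 and Ly6d, whose differences are given above. Cpox, an enzyme of haem synthesis, rose in males by 0.66 and fell in females by 0.46, without overlap in either sex, with 1.12 (SE 0.14, adjusted p = 3.72e-07).

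**Figure D4:**
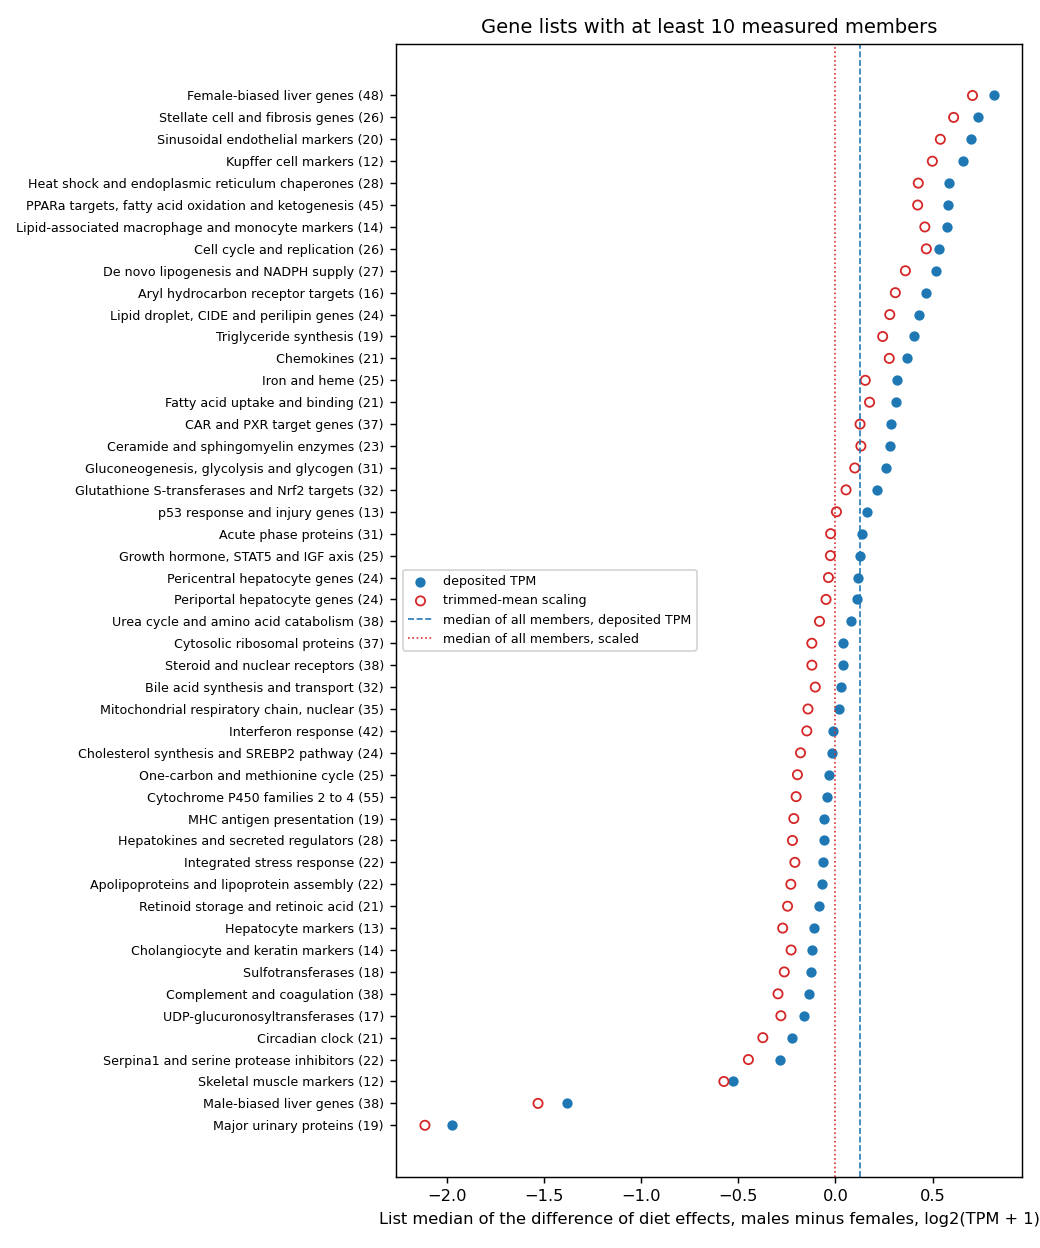
Median difference of diet effects, males minus females, of each gene list with at least 10 measured members (number in brackets), on deposited TPM (filled) and after trimmed-mean scaling (open), with vertical lines at the median of all 14213 genes on each scale. Major urinary proteins and male-biased liver genes lie at -1.97 and -1.38, and female-biased, stellate cell and endothelial lists lie at 0.82, 0.73 and 0.70.

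Several lists had few called members, beside 19.6% of all 14213 genes on deposited TPM and 14.2% with scaling. Of 37 cytosolic ribosomal proteins 0 were called by limma on either scale, with 0 at an unadjusted p under 0.05 on deposited TPM and 3 with scaling. Of 35 nuclear genes of the respiratory chain 1 was higher and 0 lower, and 0 were called with scaling. Of 42 interferon response genes 1 was higher and 1 lower, and 0 and 2 with scaling. Of 38 steroid and nuclear receptors 1 was higher and 2 lower, and 0 and 5 with scaling, near the scaled share of all genes. Pericentral hepatocyte genes, unlike the lists above, were called more often than all genes on deposited TPM (33.3%). They were called in both directions, 4 of 24 higher and 4 lower, and 1 and 4 with scaling. Of 24 periportal genes 2 were higher and 2 lower (16.7%), and 0 and 3 with scaling, near the shares of all genes. Of 12 skeletal muscle markers 0 were called by limma, and 0 had an unadjusted p under 0.05, on either scale. A missed threshold does not show that these genes responded alike.

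The same contrast in mice given the mixture takes its effects from none of the vehicle libraries. It had the same sign for 2712 of the 2779 genes (97.6%). Of the 2779, 1475 (53.1%) passed there with that sign, while 0 passed with the other sign. The spread behind its p-values came from all 48 libraries, vehicle included, so its calls are not independent of the vehicle calls. In those mice 2559 of the 14213 genes passed (14.1% higher and 3.95% lower in males), against 17.0% of all genes tested (13.4% higher, 3.65% lower), and 70.5% of the 14213 genes had a positive difference. With scaling 1962 of 2020 kept their sign and 1082 passed, beside 13.8% of the 14213 genes (5.9% higher, 7.88% lower) and 5.73% higher and 7.26% lower of all genes tested. Of the 285 genes with opposite effects 254 kept both signs and 66 passed in both sexes again. Cidea had a difference of 5.41 in vehicle mice and 6.88 in mice given the mixture. The corresponding values were 5.32 and 4.09 for Cyp2b9, 4.14 and 3.73 for Cdkn1a, -3.85 and -5.04 for Hsd3b5, -5.15 and -3.85 for Moxd1, and 4.27 and 1.94 for Cyp3a44. Mup17 had a difference of -4.21 in vehicle mice and -3.76 in mice given the mixture. The change in these differences between vehicle and mixture was called for 0 of the 14213 genes (0.0% of all tested), with a lowest limma adjusted p of 0.974 and 597 genes (4.20%) at an unadjusted p under 0.05. At 6 libraries a group this does not show that the sexes' diet responses were the same under both treatments.

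**Figure D5:**
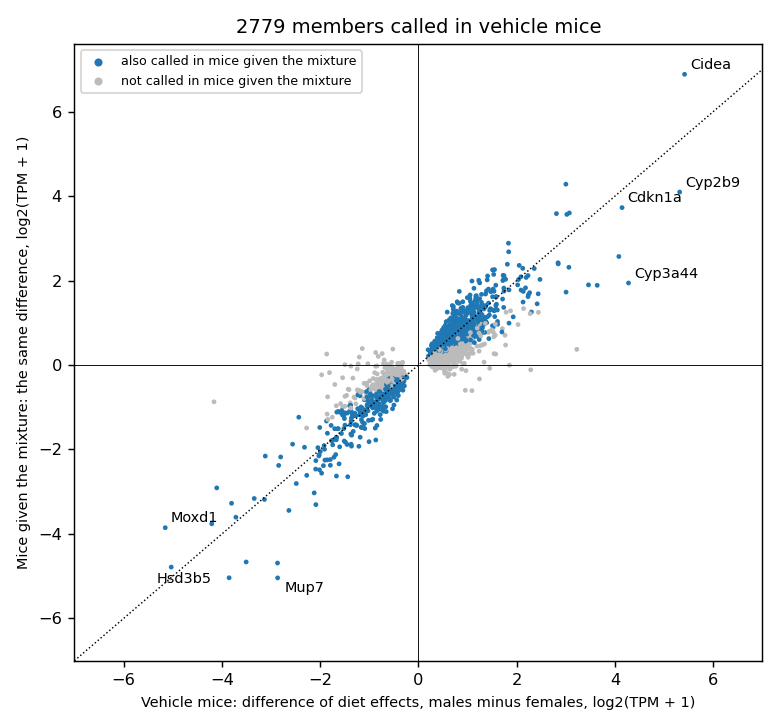
Difference of diet effects, males minus females, in log2(TPM + 1), in vehicle mice on the horizontal axis and in mice given the mixture on the vertical axis, for the 2779 genes called in vehicle mice; the dotted line marks equal values. Blue points are the genes that also passed in mice given the mixture; of the 2779, 2712 have the same sign on both axes.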

How the data were processed

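Liver poly(A) RNA from 48 libraries in 8 groups of 6 (sex, diet and vehicle or mixture) was available as 1 table of TPM (reads per transcript length, scaled to a fixed total) per gene, deposited by the authors. Per the submitters' processing notes the tools were FastQC, Trimmomatic 0.36, STAR 2.5.2b and DESeq2 with GRCm38; for the read counter and the annotation, not given in the sources used here. Each column sums to 1000000, so that the depth is unknown, and 13180 to 14053 genes reached 1 TPM in a vehicle library. The table holds 49315 genes, of which 174 rows have no name.

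Values were taken as log2(TPM + 1), and fold changes on this scale understate those of low genes. The 15820 genes that reached 1 TPM in at least 6 of 48 libraries were fitted with limma 3.58.1 in R 4.3.3 (8 group means, 40 residual degrees of freedom, empirical Bayes with an intensity trend). p-values are two-sided and were adjusted by Benjamini-Hochberg over all 15820 genes within each comparison, with a threshold of 0.05. The alternatives were a trimmed-mean scaling of TPM (30% and 5% trims), a pseudocount of 0.1, no filter, a replicate block, a fit of the compared groups alone, and leaving out libraries. The fit was tested on simulated data. Named genes are the 12 most positive and 12 most negative called differences with at least 5 TPM in 1 group, 10 genes with opposite effects, and up to 4 of each list by smallest p; 205 genes came from this rule, and the text gives those that describe each list. The members and the lists were chosen with earlier results of these data known. Each group's values are levels in TPM, and differences are on the log2 scale. Genes with near-identical copies (Mup, Sult2a, Cyp2, Cyp3a, Cyp4a, Serpina1, Gstm) are uncertain as single genes.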

Additional observations from a re-analysis of the deposited data

Results flagged for a closer look

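The difference of diet effects between males and females was itself tested, and 2779 of 14213 genes passed; the report describes them. Among the 89 genes given by name in the report, each vehicle group of 6 libraries was also searched for a single library far from the others, by the gap to the nearest library divided by the range of the group, against Dixon's 95% critical value for 6 values. Of 356 groups searched 29 passed, and chance flags about 1 in 20.

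In HFD males 7 such values were found. Adgre1 was at 32.9 TPM in replicate 3 (16.7 to 19.04 TPM in the other 5, gap over range 0.81), and Cd9 was at 30.4 TPM in replicate 5 (18.5 to 21.0 TPM in the other 5, gap over range 0.747). Cyp2d9 was at 2394 TPM in replicate 1 (754 to 1109 TPM in the other 5, gap over range 0.666), and Eng was at 40.02 TPM in replicate 5 (48.3 to 53.6 TPM in the other 5, gap over range 0.64). Mup15 was at 531 TPM in replicate 1 (45.0 to 104 TPM in the other 5, gap over range 0.664), and Mup16 was at 41.1 TPM in replicate 1 (5.26 to 11.4 TPM in the other 5, gap over range 0.643). Sult2a5 was at 0.165 TPM in replicate 1 (0 to 0 TPM in the other 5, gap over range 1).

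In LFD males 7 such values were found. Col4a1 was at 17.7 TPM in replicate 5 (9.23 to 11.5 TPM in the other 5, gap over range 0.67), and Gstm3 was at 76.3 TPM in replicate 5 (51.3 to 55.4 TPM in the other 5, gap over range 0.804). Mlxipl was at 235 TPM in replicate 1 (180 to 198 TPM in the other 5, gap over range 0.643), and Nudt7 was at 137 TPM in replicate 2 (236 to 286 TPM in the other 5, gap over range 0.739). Serpina6 was at 193 TPM in replicate 5 (281 to 334 TPM in the other 5, gap over range 0.682), and Slc46a3 was at 63.7 TPM in replicate 3 (38.8 to 45.5 TPM in the other 5, gap over range 0.677). Sult2a3 was at 0.554 TPM in replicate 5 (0 to 0.170 TPM in the other 5, gap over range 0.644).

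In HFD females 6 such values were found. Bhlhe41 was at 0.714 TPM in replicate 6 (1.38 to 1.64 TPM in the other 5, gap over range 0.753), and Cd36 was at 274 TPM in replicate 1 (161 to 195 TPM in the other 5, gap over range 0.644). Crat was at 65.0 TPM in replicate 6 (43.8 to 48.4 TPM in the other 5, gap over range 0.747), and Klkb1 was at 97.8 TPM in replicate 1 (68.3 to 77.2 TPM in the other 5, gap over range 0.659). Pecam1 was at 7.98 TPM in replicate 5 (9.13 to 9.78 TPM in the other 5, gap over range 0.658), and Serpina1e was at 32.7 TPM in replicate 5 (17.3 to 20.4 TPM in the other 5, gap over range 0.742).

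In LFD females 9 such values were found, several of them in replicate 1, which no run left out. Adgre1 was at 62.9 TPM in replicate 5 (15.9 to 24.8 TPM in the other 5, gap over range 0.682), and Aldh1a1 was at 374 TPM in replicate 1 (481 to 525 TPM in the other 5, gap over range 0.743). Arntl was at 11.7 TPM in replicate 1 (1.73 to 3.78 TPM in the other 5, gap over range 0.637), and Cd9 was at 35.5 TPM in replicate 6 (46.4 to 52.0 TPM in the other 5, gap over range 0.699). Cers6 was at 9.38 TPM in replicate 1 (13.9 to 17.0 TPM in the other 5, gap over range 0.657), and Cyp2a4 was at 763 TPM in replicate 1 (1573 to 2310 TPM in the other 5, gap over range 0.653). F7 was at 210 TPM in replicate 6 (179 to 187 TPM in the other 5, gap over range 0.73), and Ly6d was at 2.15 TPM in replicate 1 (18.1 to 30.6 TPM in the other 5, gap over range 0.782). Mup16 was at 10.03 TPM in replicate 2 (2.68 to 4.33 TPM in the other 5, gap over range 0.662).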

How the results depend on the processing

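No called difference of a named gene changed its sign under any alternative run. The balance of calls within some lists did turn with scaling, as for de novo lipogenesis (1 higher and 3 lower, against 6 and 3 on deposited TPM) and bile acid genes (5 and 8, against 6 and 5). With trimmed-mean scaling 1025 genes were called higher in males and 995 lower, and the total was 2020. It was 2016 without a filter, 2763 with a pseudocount of 0.1 and 2650 in a fit of the compared groups alone, which cannot give the comparison of vehicle with mixture and was not run for it. Fits of the compared groups alone called the diet effect in 3415 genes in females, against 4218, and in 4647 in males, against 4739. For the contrast in mice given the mixture such a fit called 2197 genes, against 2559. Leaving out single libraries gave totals of 2613 to 2748 for the difference in vehicle mice. The lowest, without replicate 1 of the HFD males, was an alternative chosen after seeing the data. Leaving out the 3 of all 48 libraries with the most muscle transcripts gave 2965. Of these, replicate 3 of the LFD females was a vehicle library and the others were from mice given the mixture. Replicates 4 and 5 of the vehicle LFD males stayed in that run. Replicate numbers were not taken as pairing the samples. Libraries of the same number deviated together with a median correlation of 0.026 (-0.207 to 0.170 over 36 pairs). For different numbers the median was -0.007 (-0.195 to 0.274 over 180 pairs). A weak correlation does not show that the libraries were unpaired. A replicate block gave 2922 calls. Of the 205 named genes, 20 lost their call with scaling, 15 without a filter and 1 to 6 under each other alternative. By construction the scaling moves all genes of a library together, and it moved the median difference by 0.13. Depth is unknown and limits the low genes.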
